A study of Mus musculus with 12 samples.

Results

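Cholesterol synthesis was followed through 7 genes of the count table: Hmgcs1, Idi1, Fdps, Sqle and Lss, which encode enzymes of the pathway, and Srebf2 and Insig1, which encode its regulators. They were taken as a named list by symbol, with symbols paired to the Ensembl identifiers of the table, and the rule itself used no measured value. The list was, however, chosen with earlier results of these data known. All 7 of the 7 were present among the 54232 genes, and all 7 were among the 13368 genes tested. Although the list is named for synthesis, Srebf2 and Insig1 make no sterol themselves.

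Gene expression had been measured by 3′ RNA sequencing, which reads the end of each polyadenylated transcript, in intestinal stem cells (ISCs) of the mouse small intestine. Young mice were 2 months old and old mice 22 months. In the SM6 isolation the mice were wild type (WT) on C57/Bl6, and in the Lgr5-GFP isolation they carried the Lgr5-EGFP-IRES-CreERT allele (CreERT2 in the study's methods), a reporter inserted into the ISC gene Lgr5. Each of the 4 groups had 3 libraries from individual mice, and none had been given a treatment that the labels name. Strain and isolation changed together, so a difference between the isolations cannot be told apart from a difference between the strains. The labels describe a sort by surface markers for all libraries, but a supplementary legend says that reporter cells were sorted by their fluorescence, so SM6 and Lgr5-GFP are used here only as names of groups.

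Cholesterol is built from acetyl-CoA by way of mevalonate, farnesyl diphosphate, squalene and lanosterol. When sterols are plentiful, INSIG proteins hold the precursor of the transcription factor SREBP-2, the product of Srebf2, in the endoplasmic reticulum, and when sterols run low the precursor is released, cut and sent to the nucleus, where it switches on synthesis and uptake genes, Insig1 among them. The intestine is one of the main sites of cholesterol synthesis in the body, and dividing crypt cells need sterols for new membranes.

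The libraries held 970472 to 3815425 counts (median 1424340). Replicates of a group were distinct in all 12 pairs, with a chi-square of their counts per degree of freedom of at least 3.61. Lgr5, the defining ISC marker, was present in every library at 217 to 356 CPM (read counts scaled so that all libraries have a common total). The summed CPM of the 12 ISC markers was 13300 to 16480 in SM6 young, 8467 to 9630 in SM6 old, 13000 to 14820 in Lgr5-GFP young and 11120 to 12810 in Lgr5-GFP old. Olfm4 made up 63.7% to 74.0% of this sum. Without Olfm4, a sum chosen after its values were seen, the other 11 markers came to 3979 to 4711 CPM in SM6 young and 2817 to 3078 CPM in SM6 old, whereas young (3618 to 4350 CPM) and old (3558 to 3972 CPM) overlapped in Lgr5-GFP. By edgeR, 3 of the 12 ISC markers were called lower in old SM6 and 0 in old Lgr5-GFP, where their median log2 fold change was -0.06. The sum of 10 Paneth cell markers ranged from 10610 to 270700 and was highest in SM6 old replicate 3 (270700) and Lgr5-GFP young replicate 1 (243100). In SM6 young (10610 to 67300) and old (43720 to 270700) overlapped, and all 10 markers had a positive log2 fold change with age (median 1.87), of which 1 was called higher. In Lgr5-GFP the sum was lower in every old library (18050 to 30710) than in every young one (42950 to 243100), with 2 of 10 markers called lower. In SM6 the sum of 10 goblet cell markers was 5929 to 9513 CPM in young and 17830 to 19130 CPM in old libraries, with 7 called higher. The sum of 14 enterocyte markers was 2176 to 2323 CPM in SM6 young and 2890 to 9795 CPM in SM6 old, with 6 called higher. Without Fabp1, also left out after its values were seen, the other 13 came to 1776 to 1908 CPM in SM6 young and 1863 to 4232 CPM in SM6 old, which overlapped through old replicate 3. In Lgr5-GFP both sums overlapped between the ages, with 1 goblet and 2 enterocyte markers called lower and median log2 fold changes of -0.76 and -0.55. Col3a1, Dcn, Pdgfra and Kdr of 10 stromal markers, Cd79a of 10 immune markers and Gnat3 of 8 tuft cell markers were at 0 in all libraries. These are bulk libraries, so fewer cells of a type and less RNA per cell cannot be told apart.

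Because SREBP-2 acts through short promoter elements, the stretch of 250 bases before the RefSeq start site (build GRCm38.p6) was searched for them on both strands. The table of promoters held 5 of the 7 genes: Hmgcs1, Idi1, Insig1, Srebf2 and Lss. The sterol regulatory element was searched as TCACNCCA, which 3.67% of all 32851 promoters held, and the longer TCACNCCAC nested in it, which 1.05% held. The shorter form occurred before Hmgcs1 and Srebf2, starting at -137 and -162 from the start site, and the longer form occurred before Hmgcs1. The box CCAAT, read by NF-Y, was found before all 5 genes and in 33.8% of all promoters, and the GC box GGGCGG before all 5 and in 32.7%. The promoters of Hmgcs1 (chr13:119690101-119690350), Srebf2 (chr15:82147019-82147268) and Insig1 (chr5:28071162-28071411), all on the plus strand, are shown because the former pair hold the element and the third belongs to the gene that passed a test of age. Capitals mark the match to TCACNCCA or TCACNCCAC.
Hmgcs1: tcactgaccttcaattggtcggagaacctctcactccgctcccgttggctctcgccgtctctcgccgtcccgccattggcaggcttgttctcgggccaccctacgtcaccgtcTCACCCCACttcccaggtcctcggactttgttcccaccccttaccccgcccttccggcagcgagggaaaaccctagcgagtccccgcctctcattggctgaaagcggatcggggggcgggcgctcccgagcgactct
Srebf2: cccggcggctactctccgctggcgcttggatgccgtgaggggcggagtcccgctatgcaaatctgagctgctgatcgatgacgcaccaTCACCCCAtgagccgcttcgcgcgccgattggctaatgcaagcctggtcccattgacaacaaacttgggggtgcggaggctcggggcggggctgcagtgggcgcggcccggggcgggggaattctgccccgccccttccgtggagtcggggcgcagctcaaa
Insig1: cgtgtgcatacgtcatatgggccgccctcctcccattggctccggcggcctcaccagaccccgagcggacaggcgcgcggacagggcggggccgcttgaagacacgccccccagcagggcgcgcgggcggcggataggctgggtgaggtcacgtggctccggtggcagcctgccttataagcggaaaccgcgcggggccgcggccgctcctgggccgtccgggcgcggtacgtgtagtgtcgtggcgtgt
The Insig1 stretch has no capitals, which says only that these letters are not in this window. A match is a description of the sequence and not a measured binding site.

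Old and young ISCs were compared with edgeR's quasi-likelihood test, fitted to all 12 libraries over all tested genes, and a gene was called at a Benjamini-Hochberg adjusted p under 0.05. Of the 7 genes, 0 were called in SM6 (2.42% of all tested genes were), 0 in Lgr5-GFP (0.471%), and 1 in the average of the age differences over both isolations (2.66%). That gene was Insig1, lower in old ISCs, and 2.06% of all tested genes were called lower in the average. The other genes were called in none of the 3. DESeq2 called 0, 0 and 1 of the 7 genes in the same comparisons and limma voom called 1, 0 and 1, in each case Insig1. At an unadjusted edgeR p under 0.05, 2 of 7 passed in SM6 (Sqle and Insig1), 1 in Lgr5-GFP (Insig1) and 1 in the average (Insig1), against 13.1%, 9.79% and 12.8% of all tested genes. The libraries of young and old did not overlap for 2 of 7 genes in SM6, Sqle and Insig1, against 17.5% of all tested genes, and for 2 of 7 in Lgr5-GFP, Sqle and Idi1, against 14.6%.

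Insig1 (chromosome 5, 28071363 to 28078662, plus strand, GRCm38) encodes the membrane protein that retains the SREBP precursor in the endoplasmic reticulum. In SM6 its level was 89.2, 80.4 and 104 CPM in young replicates 1 to 3 and 39.0, 38.7 and 79.9 CPM in old replicates 1 to 3. All 3 old libraries lay under all 3 young ones, although old replicate 3 came within 1 CPM of the lowest young library. In Lgr5-GFP the young libraries had 57.0, 59.6 and 109 CPM and the old ones 27.99, 59.4 and 24.1 CPM. Here the groups overlapped through old replicate 2, which lay between young replicates 1 and 2.

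The mean level of Insig1 was 91.2 ± 11.97 CPM (SD, n = 3) in SM6 young and 52.5 ± 23.7 CPM in SM6 old. In Lgr5-GFP it was 75.2 ± 29.2 CPM in young and 37.2 ± 19.3 CPM in old ISCs. The average age difference was a log2 fold change of -0.91 (SE 0.22, 95% confidence interval -1.37 to -0.46), or 1.88-fold lower in old ISCs (edgeR quasi-likelihood test, adjusted p = 0.0208 by Benjamini-Hochberg). Within the isolations, the log2 fold change of Insig1 was -0.80 (SE 0.30) in SM6 and -1.02 (SE 0.32) in Lgr5-GFP, with edgeR adjusted p of 0.217 and 0.205. The age effects of the isolations differed by -0.22 on the log2 scale (Lgr5-GFP minus SM6, 95% confidence interval -1.13 to 0.68), with an edgeR adjusted p of 0.93.

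The average call of Insig1 was lost on leaving out any of 6 single libraries (SM6 young replicate 3, SM6 old replicates 1 and 2, Lgr5-GFP young replicate 3, Lgr5-GFP old replicates 1 and 3), where the log2 fold change was -0.86 to -0.72 and the edgeR adjusted p 0.0582 to 0.0967. Without SM6 old replicate 3 and Lgr5-GFP young replicate 1 together, the libraries with the highest Paneth marker sums, it was -1.21 (edgeR adjusted p = 0.00104), and the SM6 comparison then gave -1.22 (edgeR adjusted p = 0.0226). This pair was chosen after seeing the data. With only SM6 old replicate 3 left out, the SM6 value was -1.22 (edgeR adjusted p = 0.0306), and with only Lgr5-GFP old replicate 2 left out the Lgr5-GFP value was -1.53 (edgeR adjusted p = 0.0313). These old libraries had the highest Insig1 level of their groups. With the share of counts from alpha-defensins, Paneth cell genes, as a covariate, Insig1 was at -0.75 in SM6 (edgeR adjusted p = 0.355). With that covariate it was at -1.08 in Lgr5-GFP (edgeR adjusted p = 0.368) and -0.92 in the average (edgeR adjusted p = 0.0131). In SM6 every old library also had a lower ISC marker sum and a higher goblet marker sum than every young one, and the enterocyte sum was higher in every old library through Fabp1. All 10 Paneth and all 10 enteroendocrine markers had positive values in SM6, with overlapping sums and 1 of each called higher. In Lgr5-GFP the Paneth, ISC and immune marker sums were lower in every old library than in every young one, the ISC sum through Olfm4 and the immune sum at 5.79 to 13.0 CPM in old against 19.5 to 42.5 CPM in young libraries. The part of these cell types in the Insig1 result was not tested.

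**Figure D1:**
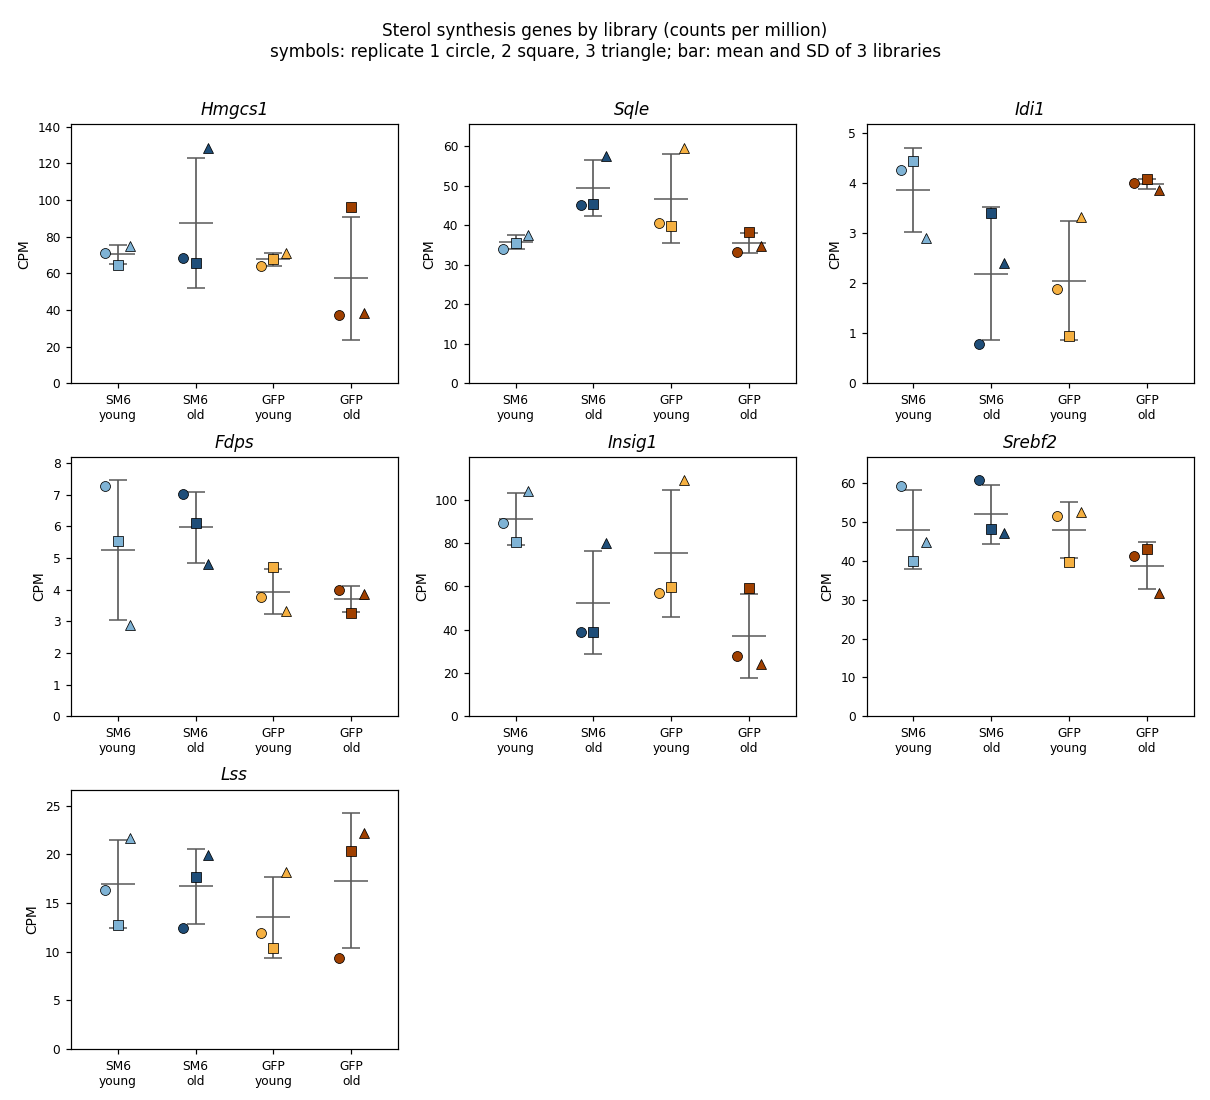
Level in CPM (vertical axes, from 0) of the 7 genes in each library of the 4 groups (horizontal axes), with replicate 1 as a circle, 2 as a square and 3 as a triangle, and the mean and SD of 3 libraries as bars. For Insig1, the old SM6 libraries (38.7 to 79.9 CPM) lie under the young ones (80.4 to 104 CPM), and for Hmgcs1 a single old library of each isolation stands above the rest of its group.

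Srebf2 (chromosome 15, 82147181 to 82205379, plus strand), which encodes SREBP-2 and hosts the microRNA gene Mir33, was at 59.5, 39.9 and 44.8 CPM in SM6 young and 60.8, 48.2 and 47.1 CPM in SM6 old. The Lgr5-GFP libraries had 51.7, 39.7 and 52.6 CPM in young and 41.3, 43.1 and 31.8 CPM in old libraries. Young and old overlapped in both isolations, and the average log2 fold change was -0.10 with a 95% confidence interval of -0.42 to 0.22. A change of Srebf2 within those bounds was not detectable with these libraries.

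Among the enzymes, Hmgcs1 (chromosome 13, 119690379 to 119708260, plus strand) makes HMG-CoA, an early intermediate of the pathway. It was at 71.0, 64.9 and 75.2 CPM in SM6 young and 68.6, 65.8 and 129 CPM in SM6 old. Lgr5-GFP had 64.0, 68.1 and 71.2 CPM in young and 37.3, 96.0 and 38.6 CPM in old libraries. Both young groups were narrow (SD 5.19 and 3.63 CPM), whereas the old groups were wide (SD 35.5 and 33.5 CPM) because SM6 old replicate 3 and Lgr5-GFP old replicate 2 stood high. The log2 fold change with age was 0.31 (SE 0.28) in SM6 and -0.24 (SE 0.29) in Lgr5-GFP, with an average of 0.04 (95% confidence interval -0.38 to 0.45). The antisense gene Gm48342 overlaps exons of Hmgcs1, and the sources used here do not say whether reads were counted by strand.

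Sqle (chromosome 15, 59315077 to 59331192, plus strand) encodes squalene epoxidase, the first oxygen-dependent step of the sterol branch. In SM6 it was at 34.0, 35.5 and 37.6 CPM in young and 45.2, 45.5 and 57.5 CPM in old libraries, so that every old library was above every young one. In Lgr5-GFP the order was the opposite, with 40.6, 39.7 and 59.6 CPM in young and 33.3, 38.2 and 34.7 CPM in old libraries. The log2 fold change was 0.47 (95% confidence interval 0.01 to 0.92) in SM6 and -0.41 (95% confidence interval -0.87 to 0.04) in Lgr5-GFP, with edgeR adjusted p of 0.36 and 0.57. The difference of the age effects was -0.88 (SE 0.31), which did not pass the edgeR test (Benjamini-Hochberg adjusted p = 0.321). Of the 7 genes, 0 were called in that test of the difference, against 0.658% of all tested genes, and Sqle was the 1 gene with an unadjusted edgeR p under 0.05, against 9.43% of all tested genes. In the same test, 8 of 10 Paneth, 5 of 10 goblet, 6 of 14 enterocyte and 1 of 10 enteroendocrine markers were called lower. Their medians were -4.74, -1.78, -1.11 and -1.68. Of the 12 ISC markers 10 had a positive value and 0 were called, with a median of 0.33. The part of these cell types in the Sqle values was not tested.

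Lss (chromosome 10, 76531588 to 76557138, plus strand) encodes lanosterol synthase, which closes the sterol rings. It was at 16.4, 12.8 and 21.7 CPM in SM6 young and 12.5, 17.7 and 20.0 CPM in SM6 old. The Lgr5-GFP values were 11.97, 10.4 and 18.2 CPM in young and 9.33, 20.3 and 22.2 CPM in old libraries. The age groups overlapped in both isolations, and the average log2 fold change was 0.14 (95% confidence interval -0.38 to 0.66). The antisense gene 4930483K19Rik overlaps exons of Lss, so the limit on strand given for Hmgcs1 applies here too.

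Idi1 and Fdps rested on few reads. Idi1 (chromosome 13, 8885501 to 8892451, plus strand), which isomerises isopentenyl diphosphate, had 1 to 8 counts per library. Its level was 4.25, 4.43 and 2.89 CPM in SM6 young, 0.779, 3.39 and 2.397 CPM in SM6 old, 1.89, 0.945 and 3.31 CPM in Lgr5-GFP young and 4.00, 4.07 and 3.86 CPM in Lgr5-GFP old. The old Lgr5-GFP libraries were above the young ones, but the 95% confidence interval of that log2 fold change ran from -0.63 to 2.30, and the interval in SM6 from -2.30 to 0.73. Exons of Idi1 overlap Gm48574 on the other strand.

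Fdps (chromosome 3, 89093588 to 89101959, minus strand), which makes farnesyl diphosphate, had 4 to 12 counts per library. Its level was 7.28, 5.54 and 2.89 CPM in SM6 young, 7.01, 6.11 and 4.79 CPM in SM6 old, 3.78, 4.73 and 3.31 CPM in Lgr5-GFP young and 4.00, 3.25 and 3.86 CPM in Lgr5-GFP old. Its average log2 fold change was 0.06 with a 95% confidence interval of -0.76 to 0.89, so only a large change would have been detectable at this depth. Fdps shares exons with Gm43738 on the same strand, a gene with at most 1 count in any library, and how reads over shared exons were assigned is not given in the sources used here, so the counts of Fdps are uncertain.

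**Figure D2:**
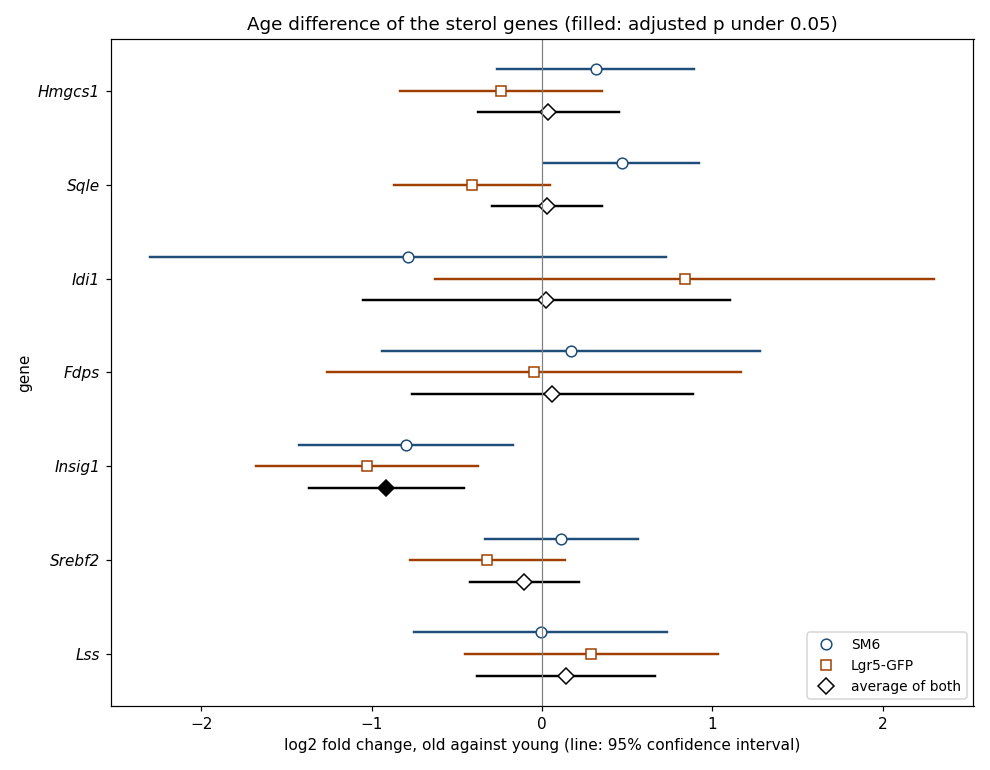
Log2 fold change of old against young (horizontal axis) of each gene (vertical axis) in SM6, in Lgr5-GFP and in the average of both, with 95% confidence intervals as lines and filled symbols where the adjusted p was under 0.05. The filled symbol is the average of Insig1 at -0.91, Sqle points in opposite directions in the isolations (0.47 and -0.41), and Idi1 has the widest intervals.

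The libraries of a group differed for several genes at once. Of the 7 genes, 5 had their highest value of the old Lgr5-GFP group in replicate 2, 6 their highest of the young Lgr5-GFP group in replicate 3, and 4 their highest of the old SM6 group in replicate 3. The summed level of the 7 genes was 157 and 159 CPM in Lgr5-GFP old replicates 1 and 3 against 264 CPM in replicate 2, and 234 and 225 CPM in SM6 old replicates 1 and 2 against 340 CPM in replicate 3. In young mice the sums were 282, 243 and 289 CPM in SM6 and 231, 223 and 317 CPM in Lgr5-GFP. Lgr5-GFP old replicate 2 also had the highest sum of 14 enterocyte markers of the 12 libraries, 12150 CPM against 2274 and 3135 CPM in the others of its group, and SM6 old replicate 3 had the highest Paneth marker sum. The part of these cell types in the levels was not tested.

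Across the 12 libraries, 13 of the 21 pairs among the 7 genes had a positive Pearson's r of log2(CPM + 1), with a median r of 0.257. The closest pair was Hmgcs1 and Insig1, with Pearson's r = 0.675 (permutation p = 0.0136, 0.286 after Benjamini-Hochberg adjustment over 21 pairs) and Spearman's rho = 0.65 (permutation p = 0.0259, adjusted 0.464). Without the 2 libraries farthest from the median of Hmgcs1, r was 0.618, and after subtracting the 4 group means it was 0.886. After adjustment 0 of the 21 pairs were under 0.05.

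**Figure D3:**
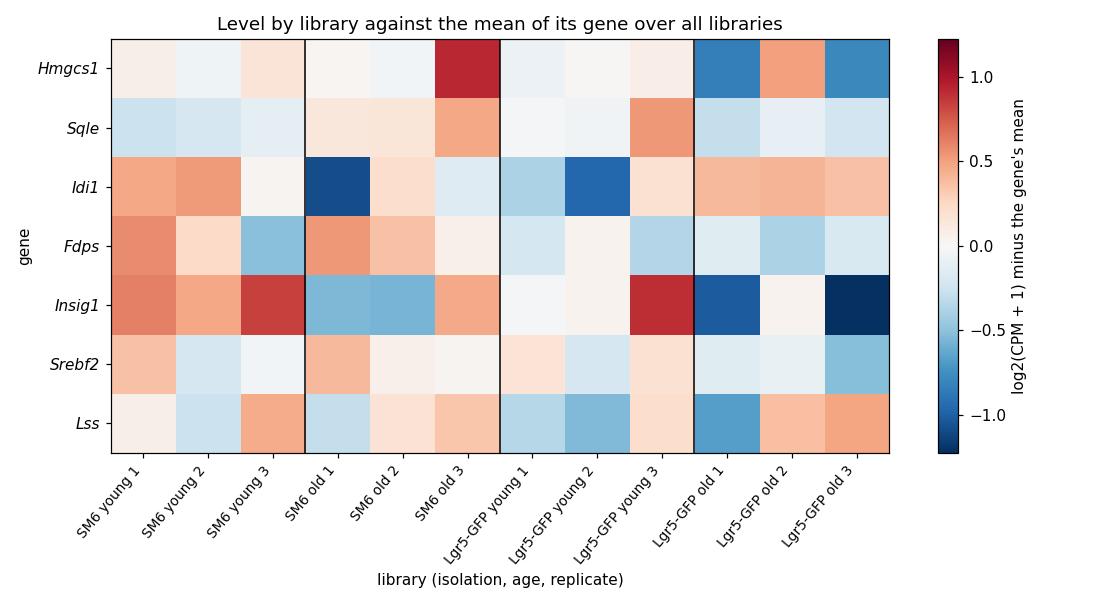
Difference of log2(CPM + 1) in each library (horizontal axis, in blocks of 3 per group) from the mean of that gene over the 12 libraries, for the 7 genes (vertical axis), red above and blue below the mean. Hmgcs1 and Insig1 are both lowest in Lgr5-GFP old replicates 1 and 3, and Hmgcs1 is highest in SM6 old replicate 3.

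Between the isolations, 0 of the 7 genes were called at 2 months (0.0898% of all tested genes) and 0 at 22 months (0.718%) by edgeR, and DESeq2 and limma voom also called 0 at both ages. At an unadjusted edgeR p under 0.05, 0 of 7 passed at 2 months (7.47% of all tested genes) and 2 at 22 months (9.40%). At 2 months the median log2 fold change of Lgr5-GFP against SM6 was -0.26 over the 7 genes, of which 5 had a negative value, and -0.01 over all tested genes. There the median was 2.35 over 10 Paneth markers and 2.39 over 7 tested tuft markers, of which 0 were called and 10 and 4 had an unadjusted edgeR p under 0.05, and -1.25 over 10 enteroendocrine markers, with 2 called lower. At 22 months it was -0.48 over the 7 genes and 0.00 over all tested genes, and 5 of 7 genes had a negative value. At 22 months, 8 of 10 goblet, 6 of 14 enterocyte, 5 of 10 enteroendocrine and 1 of 10 Paneth markers were called lower in Lgr5-GFP, with median log2 fold changes of -2.15, -0.60, -2.63 and -2.61. Of the 12 ISC markers there, 9 had a positive value and 1 was called higher, with a median of 0.27. The part of these cell types in the levels at either age was not tested. The 2 genes under an unadjusted p of 0.05 were Hmgcs1 (-0.61, SE 0.29) and Sqle (-0.48, SE 0.23), with edgeR adjusted p of 0.519 and 0.516. Without Lgr5-GFP old replicate 2, the value of Hmgcs1 was -1.20 and passed the test (edgeR adjusted p = 0.0399).

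The wider pathway was read from 5 lists with 68 genes, of which 64 were tested: other sterol synthesis enzymes, the control of SREBP, uptake and traffic of sterols, efflux and storage, and fatty acid synthesis. In SM6, 5 of the 64 genes were called, 1 higher in old ISCs (Cyp51; 0.643% of all tested genes were called higher) and 4 lower (Lbr, Syvn1, Abcg1 and Soat1; 1.77%). In Lgr5-GFP, 1 was called, Abcg1, which was lower (0.284% of all tested genes were called lower and 0.187% higher). In the average, Lbr, Syvn1, Abcg1 and Soat1 were called lower and 0 genes higher (2.06% of all tested genes were called lower and 0.598% higher). In the test of the difference of the age effects, 0 of the 64 were called by edgeR, DESeq2 or limma voom, and 8 had an unadjusted edgeR p under 0.05, against 9.43% of all tested genes.

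Among the 17 other sterol synthesis enzymes, the median log2 fold change was 0.22 in SM6, where 11 of 17 values were positive, and -0.27 in Lgr5-GFP, where 12 of 17 were negative. Over the 7 genes the medians were 0.11 in SM6 and -0.24 in Lgr5-GFP, and over all tested genes -0.01 and -0.03. In the average over both isolations, the medians were 0.03 for the 17 enzymes, 0.03 for the 7 genes and -0.03 for all tested genes. The median difference of the age effects was -0.36 for the 17 enzymes, -0.22 for the 7 genes and 0.00 for all tested genes, with 0 genes of either list called by edgeR, DESeq2 or limma voom. For markers it was -4.74 (Paneth), -1.78 (goblet), -1.68 (enteroendocrine), -1.11 (enterocyte) and 0.33 (ISC). The part of these cell types in the medians was not tested.

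**Figure D4:**
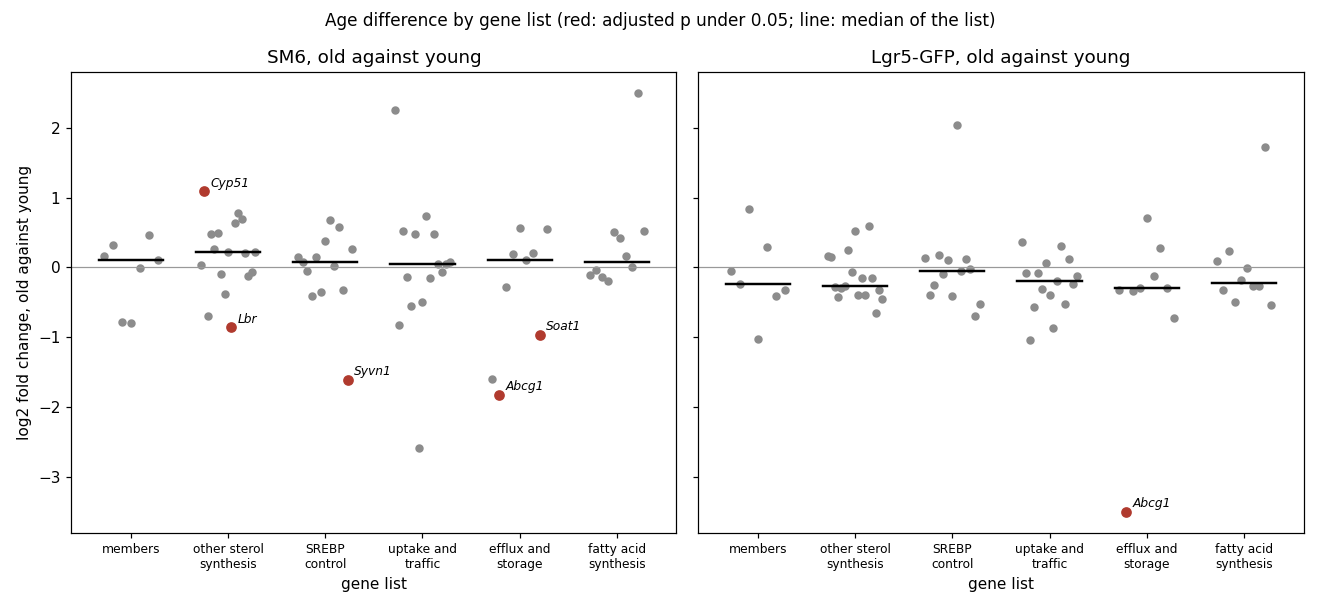
Log2 fold change of old against young (vertical axis) of each tested gene by list (horizontal axis), in SM6 on the left and in Lgr5-GFP on the right, with called genes in red and a line at the median of each list. In SM6, Cyp51 is the called gene above 0 and Lbr, Syvn1, Abcg1 and Soat1 lie below it, whereas in Lgr5-GFP the called gene is Abcg1, whose fitted value rests on old libraries with 0 to 3 counts.

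Cyp51 (chromosome 5, 4081145 to 4104746, minus strand), which removes a methyl group from lanosterol, was at 17.6, 20.0 and 14.5 CPM in SM6 young and 22.6, 42.8 and 46.3 CPM in SM6 old, without overlap. It rose 2.13-fold in SM6 (log2 fold change 1.09, SE 0.28, edgeR adjusted p = 0.0398). In Lgr5-GFP it was at 20.8, 22.7 and 24.8 CPM in young and 23.3, 30.9 and 21.2 CPM in old libraries, where the log2 fold change was 0.15 (SE 0.28). The difference of the age effects was -0.94 (edgeR adjusted p = 0.462). The SM6 call was lost without any of SM6 young replicates 1, 2 and 3 and SM6 old replicates 2 and 3, where the log2 fold change was 0.92 to 1.21 and the edgeR adjusted p 0.0899 to 0.184. It was also lost under limma voom (0.95, adjusted p = 0.0747) and with the share of counts from alpha-defensins, Paneth cell genes, as a covariate (0.99, edgeR adjusted p = 0.135). Without SM6 old replicate 1, the average passed the test (0.76, edgeR adjusted p = 0.0381). Exons of Cyp51 overlap Akap9 on the other strand.

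Lbr (chromosome 1, 181815335 to 181843046, minus strand), a protein of the inner nuclear membrane with sterol reductase activity, was at 104, 135 and 103 CPM in SM6 young and 63.9, 48.2 and 78.3 CPM in SM6 old, without overlap. It was at 82.2, 69.0 and 90.7 CPM in Lgr5-GFP young and 55.98, 74.0 and 55.0 CPM in Lgr5-GFP old, where old replicate 2 overlapped the young range. It fell 1.54-fold in the average (log2 fold change -0.63, SE 0.14, edgeR adjusted p = 0.015) and 1.81-fold in SM6 (-0.85, SE 0.20, edgeR adjusted p = 0.0204). The SM6 call was lost without SM6 young replicate 2, SM6 old replicate 1 or SM6 old replicate 2 (-0.84 to -0.68, edgeR adjusted p 0.0943 to 0.161). The average call was lost without SM6 young replicate 2, SM6 old replicate 2 or Lgr5-GFP old replicate 1 (-0.59 to -0.54, edgeR adjusted p 0.0524 to 0.0633). Exons of Lbr overlap Dnah14 on the other strand and the rRNA gene Gm26004 on the same strand. How reads over such exons were assigned is not given in the sources used here.

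Syvn1 (chromosome 19, 6046576 to 6053712, plus strand), a ubiquitin ligase of the endoplasmic reticulum, had 5 to 35 counts per library. It was at 9.71, 13.3 and 16.6 CPM in SM6 young, 5.46, 3.39 and 3.99 CPM in SM6 old, 11.03, 10.4 and 11.2 CPM in Lgr5-GFP young and 5.998, 5.69 and 8.68 CPM in Lgr5-GFP old. Every old library was under every young one in both isolations. It fell 2.22-fold in the average (log2 fold change -1.15, SE 0.29, edgeR adjusted p = 0.0312) and 3.05-fold in SM6 (-1.61, SE 0.43, edgeR adjusted p = 0.0442). These calls were near the threshold: the SM6 call was lost on leaving out any of 9 single libraries, all but SM6 young replicate 1 and Lgr5-GFP old replicates 2 and 3 (edgeR adjusted p 0.0501 to 0.192). The average call was lost on leaving out any of 8, all but SM6 young replicate 1, SM6 old replicate 1, Lgr5-GFP young replicate 2 and Lgr5-GFP old replicate 3 (edgeR adjusted p 0.0506 to 0.0913). DESeq2 did not call it in SM6 (-1.61, adjusted p = 0.0914) or in the average (-1.15, adjusted p = 0.0631), and limma voom did not call it in SM6 (-1.54, adjusted p = 0.0628). Over the 8 alternatives other than leaving out 1 library that ended the SM6 call, the log2 fold change was -1.62 to -1.44. Exons of Syvn1 overlap Mrpl49 on the other strand.

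Abcg1 (chromosome 17, 31057675 to 31117988, plus strand), which exports cholesterol to lipoproteins, was at 22.5, 27.2 and 20.2 CPM in SM6 young and 7.79, 3.39 and 8.79 CPM in SM6 old, without overlap. It fell 3.53-fold in SM6 (log2 fold change -1.82, SE 0.42, edgeR adjusted p = 0.0185). In Lgr5-GFP it was at 15.4, 7.56 and 13.3 CPM in young libraries and had 3, 0 and 1 counts in the old ones, all at or under the 3 counts per library that a count of 0 allows. The mean of the young Lgr5-GFP libraries (12.08 CPM) was 4.94-fold that limit (2.44 CPM on average), a ratio that leaves out the spread of the young libraries. The gene was called lower in old Lgr5-GFP ISCs (edgeR adjusted p = 0.00782). This call was lost with the alpha-defensin share as a covariate (edgeR adjusted p = 0.059). The average over both isolations was called (edgeR adjusted p = 0.000172), and on leaving out each library in turn its edgeR adjusted p was 0.000143 to 0.001. The SM6 call was lost without SM6 young replicate 2, SM6 old replicate 1 or SM6 old replicate 2 (-1.94 to -1.49, edgeR adjusted p 0.0608 to 0.13).

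Soat1 (chromosome 1, 156424525 to 156474331, minus strand), which esterifies cholesterol for storage, was at 519, 502 and 575 CPM in SM6 young and 251, 209 and 360 CPM in SM6 old. The Lgr5-GFP libraries had 474, 440 and 414 CPM in young and 373, 399 and 314 CPM in old libraries. Every old library was under every young one in both isolations. It fell 1.54-fold in the average (log2 fold change -0.62, SE 0.13, edgeR adjusted p = 0.00584) and 1.95-fold in SM6 (-0.96, SE 0.18, edgeR adjusted p = 0.00359), and in Lgr5-GFP the log2 fold change was -0.29 (SE 0.18, edgeR adjusted p = 0.654). The difference of the age effects was 0.67 (edgeR adjusted p = 0.382). Both calls held on leaving out each single library, with an edgeR adjusted p of at most 0.042 in SM6 and 0.0321 in the average. The SM6 results for Cyp51, Lbr, Syvn1, Abcg1 and Soat1 came with the lower ISC and higher goblet and enterocyte marker sums of old SM6 libraries. All 10 Paneth and all 10 enteroendocrine markers had positive values there. The Lgr5-GFP result for Abcg1 came with lower Paneth, ISC and immune marker sums in old libraries. The part of these cell types in the results, the averages over both isolations included, was not tested.

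**Figure D5:**
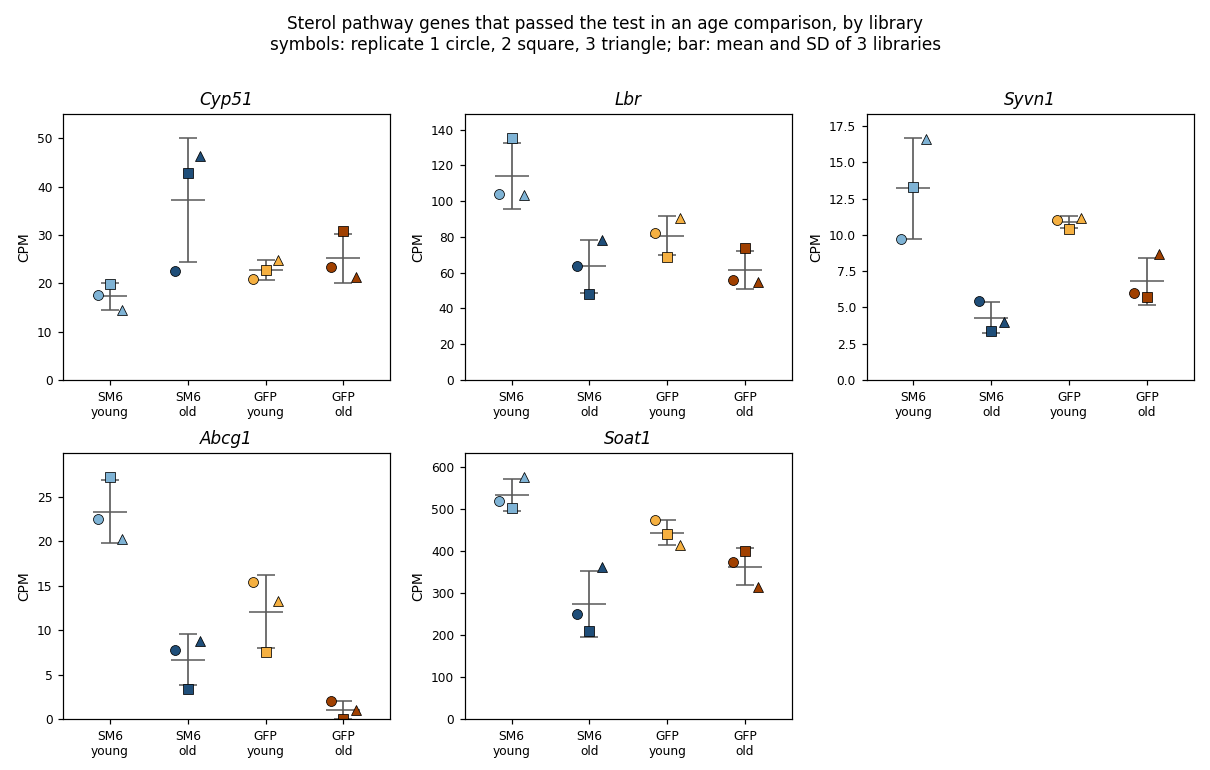
Level in CPM (vertical axes, from 0) of Cyp51, Lbr, Syvn1, Abcg1 and Soat1 in each library of the 4 groups (horizontal axes), with the mean and SD of 3 libraries as bars. Soat1 and Syvn1 show all old libraries under all young ones in both isolations, Abcg1 is at 0 to 2.00 CPM in old Lgr5-GFP, and the mean of Cyp51 is highest in SM6 old.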

How the data were processed

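The deposited table holds whole-number read counts per gene for 12 libraries of ISCs, with no scaling. The authors aligned the reads with STAR 2.4.2a to GRCm38 and counted them over exons of GENCODE genes with featureCounts. The library protocol adds molecular identifiers, but whether they were collapsed, and whether strand was used, is not given in the sources used here, so the limit of 3 counts covers counting error only.

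Tests used edgeR 4.0.16 under R 4.3.3. Genes with more than 5 reads and at least 1 CPM in at least 1 library were kept (13368 of 54232 genes), TMM factors scaled the totals, and the quasi-likelihood fit took 1 mean for each of the 4 groups and all 12 libraries (common dispersion 0.0434). CPM values refer to the scaled totals. Tests were two-sided, with Benjamini-Hochberg adjustment over all 13368 genes. Alternatives were DESeq2 1.42.0, limma 3.58.1 (voom with quality weights), other scalings and filters, the likelihood ratio test, the libraries of a comparison alone, the alpha-defensin share as a covariate, a replicate block and leaving out libraries. The fitting steps were tested on simulated data. Library depth, 970472 to 3815425 counts, limits the precision for genes with few counts.

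Groups and replicate numbers came from the sample titles. The members and gene lists were chosen with earlier results of these data known. All 7 members were named in every age comparison (other genes fixed by the rule are not reported here), and of the 5 pathway lists every called gene (up to 6 per list). Markers of ISC, Paneth, goblet and enterocyte cells were given for the age comparison within each isolation, and for other comparisons and cell types in part. Gene positions came from GENCODE vM21 on GRCm38 (the counting used an earlier release), and promoters from RefSeq. Python 3.11.15 with matplotlib 3.10.9 made the figures.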

Additional observations from a re-analysis of the deposited data

Results flagged for a closer look

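The age effect of Sqle pointed in opposite directions in the isolations. Every old SM6 library (45.2 to 57.5 CPM) was above every young one (34.0 to 37.6 CPM), and every old Lgr5-GFP library (33.3 to 38.2 CPM) was below every young one (39.7 to 59.6 CPM). The age effect in Lgr5-GFP minus that in SM6 was -0.88 on the log2 scale (edgeR, adjusted p = 0.321 by Benjamini-Hochberg), so it did not pass the test over all genes. On leaving out each library in turn the difference was -0.99 to -0.65. Median log2 fold changes with age also had opposite signs for Paneth (1.87 in SM6, -2.64 in Lgr5-GFP) and goblet markers (1.23, -0.76). The same held for enterocyte (0.93, -0.55) and enteroendocrine markers (0.62, -0.92), but not for ISC markers (-0.40, -0.06). The part of these cell types in the Sqle result was not tested.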

How the results depend on the processing

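Library depth limited the members with few reads, and Idi1 and Fdps had at most 12 counts in any library. The average call of Insig1 held under all 11 alternatives other than leaving out 1 library (log2 fold change -1.21 to -0.89), and leaving out each library in turn gave -1.16 to -0.72 and 0 to 1 members called. In SM6, 1 member was called, Insig1, with no filter (-0.81), under limma voom (-0.98) and without the pair of libraries richest in Paneth markers (-1.22; chosen after seeing the data), and 0 to 1 on leaving out each library. In Lgr5-GFP, 1 member, Insig1, was called with no filter (-1.05), and 0 to 1 on leaving out each library. At 22 months 0 to 1 members were called between the isolations. Of the pathway lists, 3 genes were called in SM6 under limma voom, with the libraries of the comparison alone, with the defensin covariate and without the Paneth-rich pair, and 1 to 5 on leaving out each library. In Lgr5-GFP 0 were called with the defensin covariate. In the average 2 to 5 were called on leaving out each library. In the difference of the age effects 1 was called, Npc1l1, without the pair, and 0 to 1 on leaving out each library, the 1 without SM6 old replicate 3. Cyp51 in SM6 lost its call under 5 of the 12 alternatives other than leaving out 1 library (adjusted p 0.058 to 0.139), Syvn1 in SM6 under 8 (0.051 to 0.158) and in the average under 3 (0.0571 to 0.0922), and Abcg1 in Lgr5-GFP with the defensin covariate (0.059). The cause of these changes was not tested.

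The replicate numbers did not pair the libraries (correlation of deviations -0.08 to 0.13, over 0.1 in 1 of 18 pairs). With the number as a replicate block, Insig1 was at -0.90 in the average (adjusted p = 0.0119), and Syvn1 in SM6 lost its call (-1.60, adjusted p = 0.0572).

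Values near 0 that were not called changed sign. In SM6, Lss was 0.0069 under DESeq2, 0.0099 with RLE factors, 0.013 without defensin genes, 0.00099 with the stricter filter, 0.020 under limma voom and 0.074 with the defensin covariate. With library totals alone, the median of all tested genes moved to -0.16 in SM6, 0.16 in Lgr5-GFP, 0.35 in the difference, -0.15 at 2 months and 0.21 at 22 months, and there Srebf2 was -0.026 in SM6, Fdps 0.16 in Lgr5-GFP, Fdps 0.12 and Insig1 0.14 in the difference of the age effects, and Srebf2 -0.12 at 2 months. Under limma voom, Fdps was 0.021 in Lgr5-GFP, Hmgcs1 -0.19 in the average and Lss -0.22 at 22 months. With the defensin covariate, Fdps was 0.25 in Lgr5-GFP and 0.22 in the difference, and Lss -0.074 at 22 months. Without the Paneth-rich pair, Hmgcs1 was -0.053 in SM6, -0.17 in the average and 0.011 at 2 months, Sqle -0.079 and Idi1 -0.053 in the average, Insig1 0.010 in the difference and Srebf2 -0.014 at 2 months.

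On leaving out each library, ranges that crossed 0 were -0.055 to 0.49 (Hmgcs1), -0.096 to 0.47 (Fdps), -0.0087 to 0.30 (Srebf2) and -0.18 to 0.20 (Lss) in SM6. In Lgr5-GFP they were -0.83 to 0.0076 (Hmgcs1), -0.15 to 0.058 (Fdps) and -0.021 to 0.25 (Cyp51). In the average they were -0.26 to 0.16 (Hmgcs1), -0.026 to 0.14 (Sqle), -0.21 to 0.26 (Idi1) and -0.072 to 0.21 (Fdps). In the difference they were -0.51 to 0.049 (Fdps) and -0.73 to 0.20 (Insig1), at 2 months -0.11 to 0.20 (Srebf2) and at 22 months -0.20 to 0.34 (Lss).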

Other observations

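Genes with a pattern close to that of the 7 members were sought by Pearson's r, over the 12 libraries, with the mean of the members' centred and scaled log2(CPM + 1). The values describe these libraries, which differ in depth and cell composition, and carry no test. Among the tested genes outside the list, the 8 with the highest r were Gprc5a (0.891), Tspan31 (0.874), Cdkal1 (0.863), Xpnpep3 (0.841), Chgb (0.833), Relch (0.828), Stx17 (0.825) and Tmem69 (0.822). Gprc5a and Tspan31 rested on very few reads, with a mean of 1.02 and 2.38 CPM. Chgb encodes a granule protein of enteroendocrine cells and ranged from 16.4 to 364 CPM.

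Of the 13 fatty acid synthesis genes, 10 were tested and 0 were called in any age comparison by edgeR (limma voom called 1, Me1, in the average), with 3 in SM6, 1 in Lgr5-GFP and 1 in the average at an unadjusted edgeR p under 0.05 (13.1%, 9.79% and 12.8% of all tested genes). Their median log2 fold change was 0.08 in SM6 and -0.23 in Lgr5-GFP. Of the 15 uptake and traffic genes, 0 were called in any age comparison by edgeR, DESeq2 or limma voom, with 3 in SM6, 2 in Lgr5-GFP and 0 in the average at an unadjusted edgeR p under 0.05 (beside the same shares of all tested genes), and their medians were 0.04 and -0.19.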
